A study of Homo sapiens with 8 samples.

Results

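Wild-type HAP1 cells were profiled by total RNA sequencing in 2 libraries, which are 2 of the 4 RNA-seq libraries and 2 of the 8 libraries of the series. They were chosen by their titles, which mark them as HAP1, WT and RNAseq. The other RNA-seq libraries, 2 of them, came from BCDIN3D KO clone 11, a HAP1 line in which the RNA methyltransferase gene BCDIN3D had been knocked out, and that comparison rests on 1 clone. The labels enter WT and the knockout under a tag for shRNA status and describe no shRNA, and no further allele or agent is given for either group. All cells grew for 48 h in IMDM with 10% FBS and PSQ. Total RNA with an integrity number of 10 was shared between the stranded total RNA libraries and a set of small RNA libraries. Replicates 1 and 2 of each group carry an earlier and a later date in their titles and are called biological replicates in the series' text. The text does not say whether they were separately thawed, so p-values measure only the spread between these samples, which may be technical. Pairs of values below are in the order replicate 1 and replicate 2.

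HAP1 is an adherent, near-haploid human line. It was derived from KBM-7, a line from a chronic myelogenous leukaemia that carries the BCR-ABL1 fusion, and it arose after viral delivery of POU5F1 (OCT4), SOX2, KLF4 and MYC. A cell type is usually recognised by the transcription factors and surface or structural proteins that its lineage keeps on, while genes for basic functions such as translation are on in nearly every cell. In a bulk library, fewer cells that express a gene and less RNA per cell cannot be told apart, and counts per gene cannot tell delivered copies of the 4 factors from the cell's own genes; this was not tested.

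The WT libraries held 20728819 and 24415272 counts over 57996 gene rows, against 21416336 and 20065041 in the knockout libraries. Counts were divided by the library total and are given as CPM, the usual scaling to a common library total, so 1 CPM stood for 20.7 and 24.4 counts. CPM is not corrected for gene length, and levels are therefore not ranked between genes: an order of CPM is an order of reads. A row at 0 allows a level of up to 0.145 CPM in replicate 1 and 0.123 CPM in replicate 2, taking 3 counts as the limit, which covers counting error only. The targeted gene BCDIN3D (chromosome 12, 49836043 to 49843106, GRCh38.p14) had 7.43 and 4.96 CPM in WT against 1.54 and 2.69 CPM in knockout.

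Of all rows 13731 (23.7%) had 1 or more CPM in both WT libraries and are called detected below. A further 26015 rows (44.9%) had 0 counts in both. The remaining 18250 rows (31.5%) lay between, with a median of 4 counts over both libraries, and are called neither. Detected rows held 99.6% of the counts. Among the 19023 rows that matched a protein-coding gene of RefSeq, 11988 (63.0%) were detected and 2620 (13.8%) were at 0. Detection was lower in the other annotated kinds: 393 of 2493 long noncoding RNA rows (15.8%), 187 of 874 transcribed pseudogenes (21.4%) and 143 of 9141 other pseudogenes (1.56%).

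The reads were spread over many genes. The 20 rows with the most reads held 8.80% and 8.78% of the counts, and 1013 and 1023 rows held 50% of them. RN7SK, the RNA that holds the elongation factor P-TEFb in an inactive complex, led with 23518 ± 541 CPM (SD, n = 2). It was followed by EEF1A1, the elongation factor that brings aminoacyl-tRNA to the ribosome, at 9932 CPM and by RN7SL4P at 5291 CPM. The remaining 17 were 5 ribosomal protein genes (RPL4, RPLP0, RPL13A, RPL10 and RPL7A), the elongation factor EEF2, the chaperones HSPA8, HSP90AB1 and HSPD1, the cytoskeletal genes ACTB, ACTG1 and FLNA, the glycolytic genes ENO1, PKM and GAPDH, the nucleolar protein gene NPM1 and the linker histone gene HIST1H1E.

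Gene families for basic cell functions were detected almost whole. All 77 mitochondrial ribosomal protein genes were detected, as were 81 of 83 cytosolic ribosomal protein genes, which together took 7.07% of the counts. Of the subunits of respiratory complex I 37 of 38 were detected, with NDUFV1 at 305 ± 1.72 CPM. The counts were 52 of 56 for translation initiation factors, 45 of 49 for proteasome subunits and 27 of 30 for RNA polymerase subunits. Zinc finger genes of the ZNF series, many of which encode DNA-binding repressors, were detected in 401 of 507 cases (79.1%). These shares stand against the 63.0% of all protein-coding rows.

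Families used by specialised tissues lay at the other end. Of 386 olfactory receptor genes, which serve the sense of smell, 335 were at 0 and 1 was detected, OR2W3 at 1.93 and 2.62 CPM. Of 94 keratin-associated protein genes, which build hair, 85 were at 0 and none was detected. The same held for 40 and 0 of 43 defensins, for 15 and 0 of 17 type I interferon genes and for 17 and 0 of 17 killer cell and leukocyte immunoglobulin-like receptors. Rearranging immune receptor segments were at 0 in 540 of 555 rows, and none was detected. Keratins, the intermediate filaments of epithelia, had 30 of 55 genes at 0 and 3 detected: KRT18 at 56.4 ± 3.79 CPM, KRT8 at 16.7 ± 1.86 CPM and KRT10 at 9.75 ± 1.97 CPM (SD, n = 2).

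Some families were split. Solute carriers were detected in 217 of 368 cases (59.0%), close to all protein-coding rows. HOX genes, which set position along the body axis, were detected in 22 of 39 cases with 2 at 0, and HOXA13 stood at 92.3 and 94.3 CPM. Potassium channel genes were detected in 30 of 96 cases with 9 at 0, so that most of that family (57 genes) had a few counts without reaching 1 CPM in both libraries. Genes with symbols of GABA and glutamate receptors (11 of 47), cytochrome P450 genes (12 of 55) and claudins (4 of 23) were likewise mostly below detection. The receptor class was taken by symbol only and so includes GRINA (111 and 120 CPM), which was not checked to be a subunit. Histone genes that matched a protein-coding gene of RefSeq were detected in 39 of 65 cases and took 2.03% ± 0.112 of the counts. Histone rows without such a match are left out of both figures, among them HIST1H2BE, which was detected. The share is therefore a lower limit for all histone rows.

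**Figure D1:**
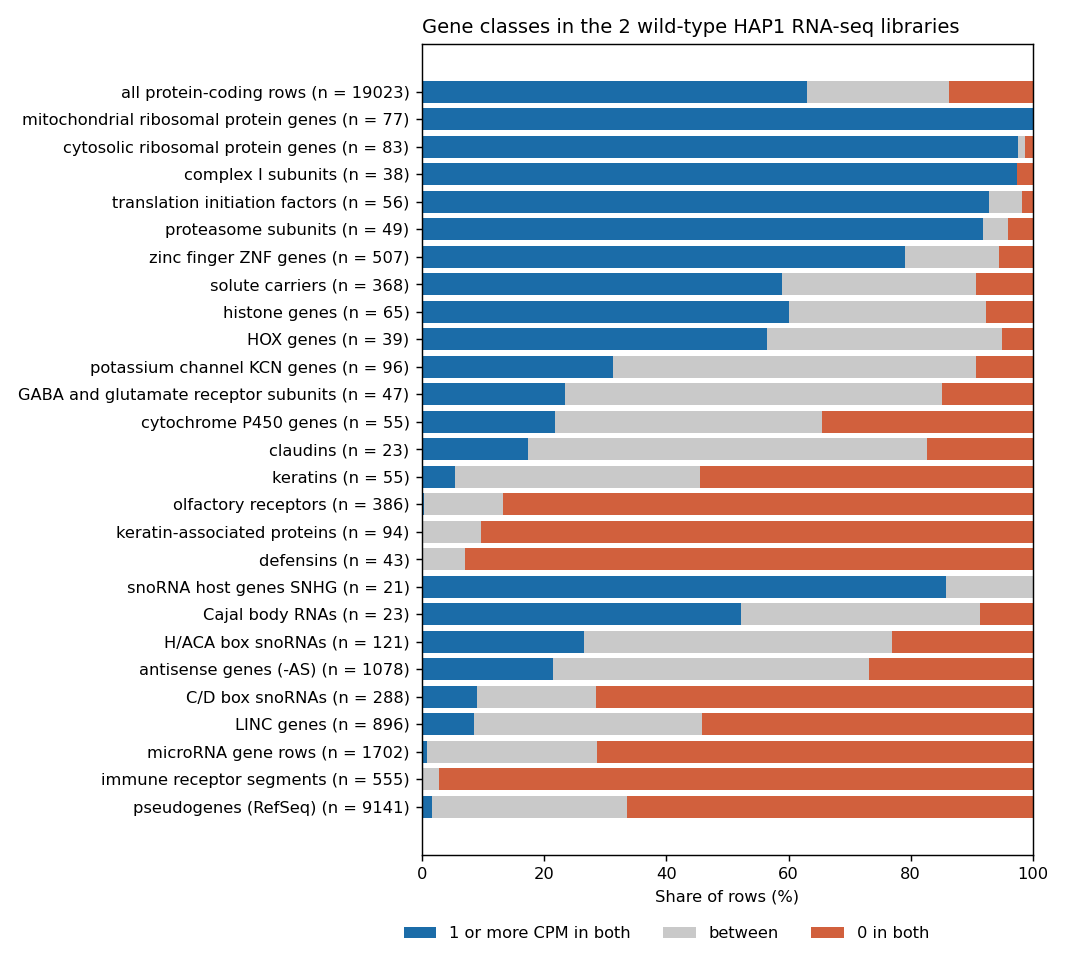
Share of rows (%) in each gene class with 1 or more CPM in both WT libraries (blue), 0 counts in both (orange) or neither (grey), with the number of rows of each class beside its name. Ribosomal, respiratory and translation genes are blue almost throughout, and olfactory receptors, keratin-associated proteins, defensins and immune receptor segments are almost wholly orange or grey, with 1 olfactory receptor detected and no member of the other 3.

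Noncoding rows differed by kind. Of the 21 host genes of the SNHG series, whose introns carry small nucleolar RNAs, 18 were detected, with SNHG1 at 285 ± 25.4 CPM. Of the small nucleolar RNAs themselves, 26 of 288 of the C/D box kind, which guide methylation, and 32 of 121 of the H/ACA box kind, which guide pseudouridylation, were detected. SNORD17 stood at 148 ± 6.90 CPM and SNORA73B at 373 ± 13.5 CPM. Cajal body RNAs were detected in 12 of 23 cases. Rows for spliceosomal snRNAs (28 of 1841), 7SK (6 of 287), 7SL (9 of 603) and Y RNAs (2 of 57) were mostly at 0, and these symbols take in many copies of each RNA. Of 515 rows for 5S and 5.8S rRNA none was detected.

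Several short noncoding RNAs had almost no counts. RN7SL1, the RNA of the signal recognition particle, was at 0 in both libraries while its copy RN7SL4P held 5291 ± 43.0 CPM, and RN7SL2 had 4 and 2 counts. RMRP, the RNA of RNase MRP, had 0 and 1 counts, RPPH1 of RNase P 4 and 0, and TERC, the telomerase RNA, 6 and 4. A read that fits several near-identical copies may have been given to another copy or to none, and reads of overlapping genes may be dropped, so a row at 0 shows only that no read was assigned to it. RNU11 and VTRNA2-1 were at 0 in both libraries as well. The vault RNA VTRNA1-2 was detected at 2.22 and 2.33 CPM, RNU12 of the minor spliceosome at 9.02 and 7.95 CPM and RNY1 at 21.3 and 20.5 CPM.

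Long noncoding RNAs were examined through 30 genes, of which 28 had a row. Of these 16 were detected and none was at 0. MALAT1, a nuclear speckle RNA, stood at 974 and 956 CPM, and NEAT1, the scaffold of paraspeckles, at 73.2 and 64.3 CPM. The snoRNA host gene GAS5 was at 330 and 314 CPM, LINC00657 (NORAD, which binds PUMILIO proteins) at 316 and 297 CPM and OIP5-AS1 at 318 and 306 CPM. From the HOX clusters, HOTTIP had 11.4 and 13.5 CPM and HOTAIRM1 8.44 and 7.09 CPM, while HOTAIR was below detection with 13 counts in each library. The imprinted H19 stood at 3.33 and 3.85 CPM and the imprinted MEG3 at 24 and 17 counts. LINC-ROR, named for its part in reprogramming, had 0 and 1 counts. By symbol, 76 of 896 LINC rows and 231 of 1078 antisense (-AS) rows were detected; the strand setting of the counting is not given in the sources used here, so reads of an antisense gene and of its partner may not be told apart.

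Genes of the blood lineage were then read from 3 lists. Transcription factors were detected in 12 of 23 cases and genes of surface receptors and antigens in 5 of 28. None of 22 granule proteins and globins reached 1 CPM in both libraries. The lineage genes of all 12 lists were detected in 81 of 238 cases (34.0%), against 63.0% of all protein-coding rows.

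The detected transcription factors included ones known from early and from committed blood cells. Whether their reads here reflect a blood origin was not tested. TAL1, which starts the blood programme with GATA2, stood at 45.9 and 50.5 CPM, and GATA2 at 37.5 and 37.7 CPM. MYB, a factor of blood progenitors, had 15.7 and 18.5 CPM, BCL11A, the repressor of fetal globin, 11.1 and 12.3 CPM, TCF7 of T cells 11.2 and 11.6 CPM and CEBPA of granulocyte precursors 10.4 and 9.79 CPM. RUNX1, required for the first blood stem cells, had 3.43 and 4.30 CPM. Lower in reads but detected were GATA3 of T cells (59 and 85 counts), GFI1 of granulocytes and stem cells (51 and 70), IRF8 of dendritic cells and monocytes (50 and 69) and EBF1 of B cells (39 and 53). Factors with few counts were also of both kinds: LMO2 and ERG of early blood cells had 4 and 2, and 1 and 1, GATA1 of red cells 0 and 5, SPI1 (PU.1) of myeloid and B cells 0 and 4, IKZF1 of lymphocytes 0 and 2, and CEBPE of late granulocytes 0 and 0.

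Few genes of surface receptors and antigens were detected. The stem cell factor receptor KIT stood at 10.9 and 11.1 CPM, the fucosyltransferase FUT4, which makes the CD15 antigen, at 14.2 and 13.2 CPM, the aminopeptidase ANPEP (CD13) at 8.44 and 9.46 CPM, the platelet integrin ITGA2B at 8.25 and 9.26 CPM and the erythropoietin receptor EPOR at 7.09 and 8.48 CPM. The pan-leukocyte phosphatase PTPRC (CD45) had 0 and 4 counts, and CD34, the marker of blood stem cells, 1 and 3. FCGR3A of natural killer cells, GP9 of platelets and CD3D of T cells were at 0 in both libraries. Among effector genes, 11 of 22 were at 0 in both libraries, among them the granule enzymes MPO, ELANE, CTSG and the lysozyme gene LYZ. The most reads in that list belonged to alpha globin HBA1, with 5 and 10 counts.

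The 4 delivered factors all had reads, as did other genes of pluripotent cells. SOX2 stood at 373 and 467 CPM, MYC at 219 and 291 CPM, POU5F1 at 193 and 237 CPM and KLF4 at 7.48 and 10.0 CPM. Each was higher in replicate 2. DPPA4, a chromatin protein of pluripotent cells, had 226 and 219 CPM, and LIN28B, which blocks let-7 maturation, 125 and 124 CPM. Its paralog LIN28A had 36.5 and 30.4 CPM, the methyltransferase DNMT3B 47.5 and 47.4 CPM and the telomerase subunit TERT 17.7 and 18.3 CPM. Other core genes were missing or nearly so: NANOG had 0 and 0 counts, ZFP42 (REX1) 3 and 4, PRDM14 0 and 1 and DPPA3 0 and 1. In all 14 of 26 pluripotency genes were detected (53.8%, against 63.0% of all protein-coding rows).

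On the axis between epithelium and mesenchyme, 16 of 25 mesenchymal and fibroblast genes (64.0%) were detected against 6 of 19 epithelial genes (31.6%). The first share is close to the 63.0% of all protein-coding rows and the second to the 34.0% of all lineage genes. The counts alone therefore do not place the cells on that axis. Vimentin (VIM), the mesenchymal intermediate filament, stood at 273 and 265 CPM, N-cadherin (CDH2) at 117 and 107 CPM and fibronectin (FN1) at 67.0 and 72.9 CPM. The repressors of E-cadherin ZEB1 (52.0 and 56.8 CPM) and ZEB2 (35.7 and 41.2 CPM) were detected, and SNAI1 stood near the threshold at 1.16 and 1.43 CPM. E-cadherin itself (CDH1) had 0 and 1 counts, GRHL2, a factor that maintains epithelium, 0 and 0, and EPCAM 18 and 21. Other epithelial genes were detected: KRT18 at 59.1 and 53.7 CPM, KRT8 at 18.0 and 15.4 CPM and P-cadherin (CDH3) at 5.84 and 6.59 CPM. OCLN and CLDN3 were detected as well. The fibroblast matrix genes LUM and DCN were at 0 in both libraries, while SPARC (79.7 and 71.0 CPM), FBN1 (50.9 and 45.1 CPM) and PDGFRA (60.8 and 73.7 CPM) were detected.

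Neural genes were detected in 10 of 22 cases (45.5%, against 63.0% of all protein-coding rows). OTX2, a factor of the anterior brain and of early epiblast, stood at 204 and 200 CPM, the neuronal tubulin TUBB3 at 192 and 208 CPM and the progenitor filament nestin (NES) at 142 and 158 CPM. PAX6 (12.5 and 16 CPM), NEUROG2 (12.2 and 14.6 CPM) and OLIG2 (11.1 and 15.9 CPM), factors of neural progenitors, were detected. SOX10 of the neural crest was at 0, SOX1 had 5 and 7 counts, and the neuronal genes SNAP25 and DCX had 3 and 5, and 1 and 1.

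Few genes of the endothelial, muscle and endoderm lists were detected. Among 12 endothelial genes 3 were detected, with EGFL7 at 22.4 and 24.4 CPM, ESAM at 3.62 and 3.73 CPM and SOX18 at 2.36 and 3.36 CPM, while the adhesion gene PECAM1 was at 0 and the VEGF receptor KDR had 1 and 0 counts. Among 15 muscle and heart genes the factors TBX5 (30.8 and 38.3 CPM) and MEF2C (32.8 and 30.5 CPM) and the giant sarcomere gene TTN (1.35 and 1.68 CPM) were detected. MYOG, MYF5, ACTC1, MYH6 and MYH7 were at 0 in both libraries. Of 19 endoderm, liver and pancreas genes only FOXA1 (34.8 and 46.5 CPM) and CDX2 (7.67 and 7.04 CPM) were detected, and PDX1, GCG and SERPINA1 were at 0.

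Early mesoderm genes were detected in 7 of 11 cases (63.6%), close to the 63.0% of all protein-coding rows. At 2 CPM or more the count was 4. MSX1 stood at 26.3 and 18.1 CPM, FOXC1 at 20.1 and 21 CPM, MSX2 at 9.55 and 9.34 CPM and MESP1 at 5.69 and 5.98 CPM. MIXL1, EOMES and HAND2 lay between 1.15 and 1.97 CPM, and the row of brachyury (T, now TBXT) was at 0 in both libraries. Germline genes were detected in 3 of 16 cases: the RNA-binding DAZL at 19.8 and 27.3 CPM, the egg coat gene ZP3 at 2.12 and 2.50 CPM and the synaptonemal SYCP3 at 1.5 and 1.31 CPM. MAEL, PIWIL1 and the protamine PRM1 were at 0.

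**Figure D2:**
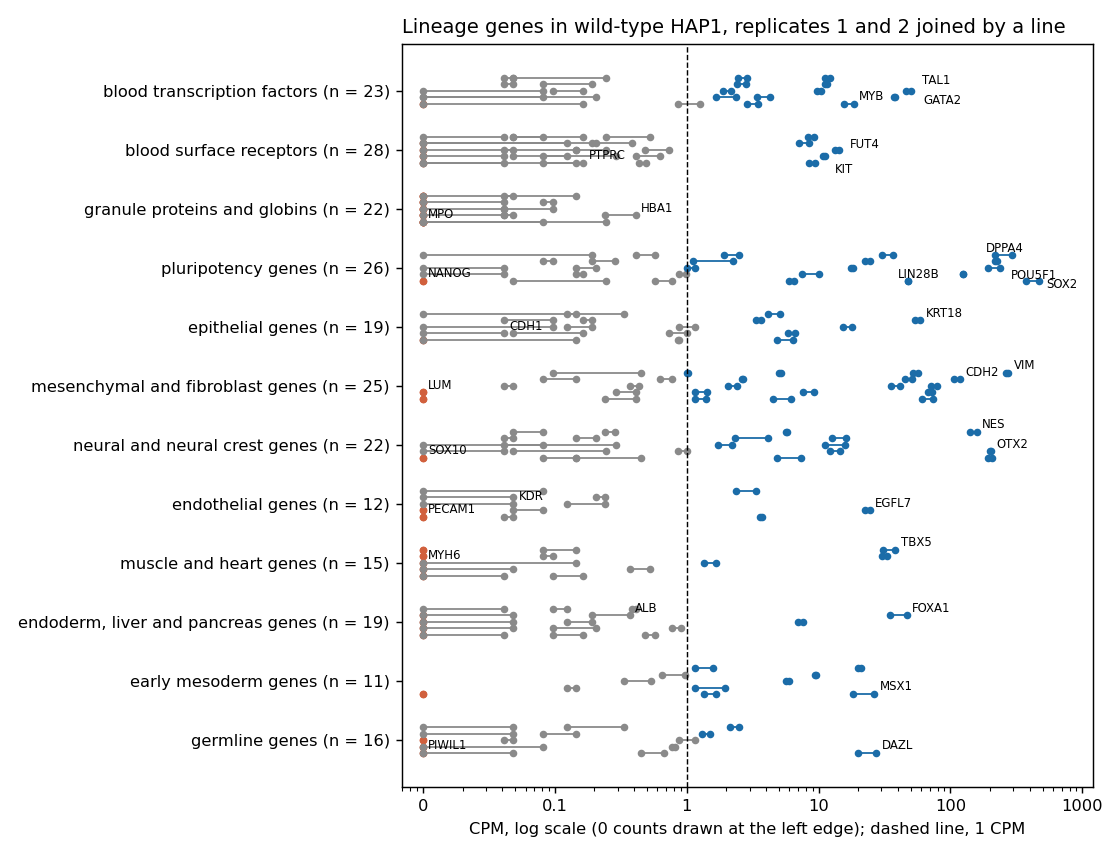
CPM of every gene of the 12 lineage lists in WT replicates 1 and 2 (points joined by a line, log scale, with 0 counts drawn at the left edge); blue, 1 or more CPM in both; orange, 0 in both; grey, between. No granule protein or globin lies right of the dashed line at 1 CPM, and SOX2, MYC, VIM, DPPA4, POU5F1, OTX2 and TUBB3 lie near the right of the plot, between 192 and 467 CPM.

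Immune functions were present in part. Class I antigen presentation had HLA-B at 83.8 and 103 CPM, the light chain B2M at 125 and 134 CPM and the peptide transporter TAP1 at 22.1 and 22.7 CPM. Of class II, HLA-DRB1 and HLA-DPA1 were at 0 and HLA-DRA had 0 and 1 counts, although their activator CIITA stood at 1.16 and 1.35 CPM. HLA genes are similar to each other, so reads may be split between them or dropped. Of 22 genes of innate sensing and interferon response 16 were detected (72.7%, against 63.0% of all protein-coding rows). Among them were the adaptor MAVS (109 and 105 CPM), STAT2 (50.2 and 47.8 CPM) and the DNA sensor cGAS (row MB21D1, 20.6 and 19.9 CPM). Its partner STING (row TMEM173) was at 1.83 and 2.01 CPM, and interferon beta (IFNB1) was at 0.

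The list of cell cycle inhibitors and tumour suppressors was detected whole, 13 of 13, against 63.0% of all protein-coding rows. It also holds MDM2, a ubiquitin ligase that is neither, at 155 and 158 CPM. RB1 stood at 119 and 125 CPM and CDKN2A, which is lost in many cell lines, at 51.5 and 51.2 CPM. The cyclin-dependent kinase inhibitor CDKN1A had 5.55 and 7.90 CPM. Both partners of the fusion were counted, BCR at 29.5 and 28.8 CPM and ABL1 at 11.6 and 12.2 CPM. Counts per gene do not show which of these reads crossed the junction.

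The promoters of protein-coding genes differed in sequence with the state of the row. CpG dinucleotides are depleted from most of the genome and kept in CpG islands, and a ratio of observed to expected CpG of 0.6 is a common mark of an island. RefSeq promoters of 300 bases (250 before the start and 50 after it, GRCh38.p14) were matched for 15219 protein-coding rows (80.0%). A single start was taken for each gene, and it may not be the start these cells use, which was not tested. The median ratio was 0.850 for detected rows (n = 9925), 0.439 for rows between (n = 3285) and 0.245 for rows at 0 (n = 2009). A ratio of 0.6 or more was found in 85.6% of detected promoters (95% Wilson interval 84.9 to 86.3), in 39.7% of those between and in 19.2% of those at 0 (17.5 to 20.9). Genes are not independent replicates, so these intervals cover counting error only and no test is given. Read the other way, 83.4% of the 10189 CpG-rich promoters belonged to detected rows and 3.78% to rows at 0, against 28.3% and 32.3% of the 5030 CpG-poor ones.

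The 250 bases before the start of 6 list genes are shown 5′ to 3′ on the gene's strand, since they span this contrast; CG and TATAAA are in capitals. They were chosen after their values were seen. TAL1 and LIN28B were detected with CpG-rich promoters, and S100A9, a granulocyte protein gene, and MYH6, a heart myosin gene, were at 0 with CpG-poor promoters that hold TATAAA 29 and 30 bases before the start. TDGF1, a co-receptor of NODAL, and MAEL, a germline gene, go the other way: TDGF1 was detected at 2.22 ± 0.413 CPM (SD, n = 2) with 2 CG in the window, and MAEL was at 0 with 51.
TAL1 (chr1:47232336-47232585, minus strand): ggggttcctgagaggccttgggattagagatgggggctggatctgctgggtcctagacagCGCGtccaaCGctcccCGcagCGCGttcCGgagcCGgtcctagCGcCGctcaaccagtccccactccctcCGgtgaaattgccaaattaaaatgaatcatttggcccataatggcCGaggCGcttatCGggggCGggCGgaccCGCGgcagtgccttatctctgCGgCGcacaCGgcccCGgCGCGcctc
LIN28B (chr6:104940715-104940964, plus strand): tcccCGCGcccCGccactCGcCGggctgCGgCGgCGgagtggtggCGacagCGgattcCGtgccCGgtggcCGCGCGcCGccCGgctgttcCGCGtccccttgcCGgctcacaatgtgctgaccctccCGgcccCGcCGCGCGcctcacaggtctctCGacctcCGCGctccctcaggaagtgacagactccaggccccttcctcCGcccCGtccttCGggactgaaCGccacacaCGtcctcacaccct
S100A9 (chr1:153357604-153357853, plus strand): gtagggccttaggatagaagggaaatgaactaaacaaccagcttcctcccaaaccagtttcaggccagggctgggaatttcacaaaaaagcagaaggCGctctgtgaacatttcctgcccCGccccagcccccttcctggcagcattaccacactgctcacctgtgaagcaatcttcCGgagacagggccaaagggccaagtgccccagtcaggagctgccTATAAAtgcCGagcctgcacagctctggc
MYH6 (chr14:23408274-23408523, minus strand): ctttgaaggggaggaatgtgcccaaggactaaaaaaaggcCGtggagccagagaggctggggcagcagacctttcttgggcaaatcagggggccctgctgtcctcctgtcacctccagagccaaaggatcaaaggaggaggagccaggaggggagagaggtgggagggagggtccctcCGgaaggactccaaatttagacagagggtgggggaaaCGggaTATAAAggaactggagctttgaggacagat
TDGF1 (chr3:46574285-46574534, plus strand): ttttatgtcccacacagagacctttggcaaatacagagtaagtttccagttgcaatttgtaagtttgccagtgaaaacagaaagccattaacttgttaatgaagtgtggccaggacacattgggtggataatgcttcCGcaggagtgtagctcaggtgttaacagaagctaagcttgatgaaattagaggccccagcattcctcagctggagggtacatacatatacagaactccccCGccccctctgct
MAEL (chr1:166975332-166975581, plus strand): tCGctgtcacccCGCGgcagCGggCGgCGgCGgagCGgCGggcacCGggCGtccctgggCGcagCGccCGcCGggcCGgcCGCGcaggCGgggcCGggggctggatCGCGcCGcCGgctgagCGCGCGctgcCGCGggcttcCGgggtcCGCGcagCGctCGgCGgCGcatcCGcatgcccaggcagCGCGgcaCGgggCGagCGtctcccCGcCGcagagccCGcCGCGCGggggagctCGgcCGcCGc
The TAL1 window holds 24 CG and that of LIN28B 33, against 4 in S100A9 and 3 in MYH6. The window of LIN28B lies at a start inside the span RefSeq gives for the gene.

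**Figure D3:**
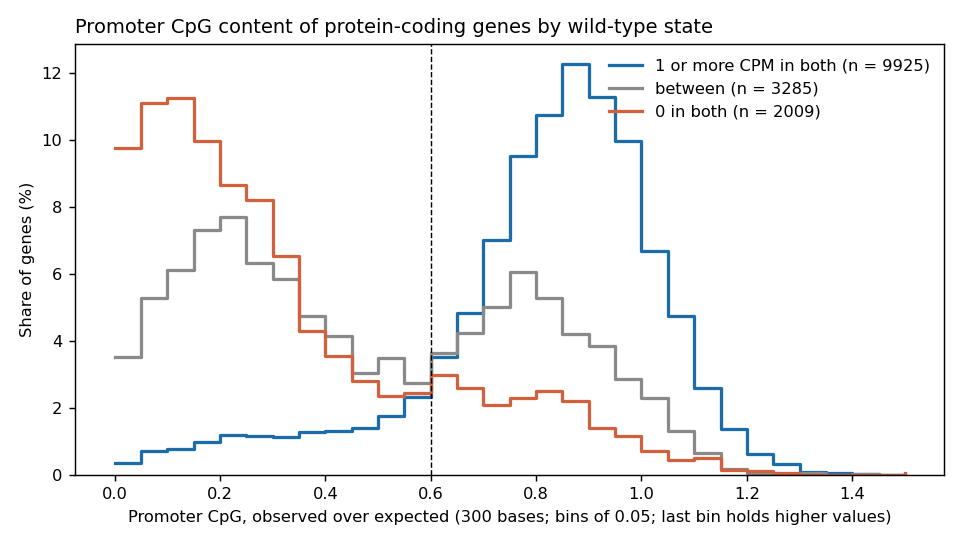
Share of protein-coding genes (%) by the observed over expected CpG ratio of their 300-base RefSeq promoter, in bins of 0.05, for detected rows, rows between and rows at 0 in the WT libraries; the dashed line marks 0.6. Detected rows gather on the right, with a median of 0.850, and rows at 0 on the left, with a median of 0.245, and rows between are spread over both sides.

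Short motifs were counted on both strands of the same 300 bases. The TATA box letters TATAAA were found in 5.12% of detected promoters and in 25.7% of those at 0, against 9.49% of all. Restricted to the gene's strand and to 40 to 16 bases before the start, the shares were 1.55%, 11.1% and 3.63%. The GC box GGGCGG went the other way, in 72.0% of detected promoters, 22.9% of those at 0 and 59.4% of all, and so did CCGGAAG of ETS factors (19.7%, 3.98% and 14.5%) and GCGCATGC of NRF1 (5.62%, 1.79% and 4.34%). All 3 contain CG, which the CpG ratio counts as well. The CCAAT box (CCAAT) differed little, with 36.8%, 39.4% and 36.6%. The letters AGATAA, which GATA factors bind, were found in 4.53% of detected promoters, in 16% of those at 0 and in 7.48% of all. A match is a run of letters and not a bound site.

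By chromosome, the share of protein-coding rows detected ran from 48.8% on chromosome 21 to 71.2% on chromosome 15. Chromosome 11 (53.7%) and the X chromosome (54.6%) were next to the lowest. Olfactory receptor and keratin-associated protein genes lie in clusters, with 179 of the 1260 rows on chromosome 11 and 49 of the 213 rows on chromosome 21. Without those families, a comparison added after the data were seen, the shares were 62.6% on chromosome 11 and 63.4% on chromosome 21, while that of the X chromosome stayed at 54.7%.

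**Figure D4:**
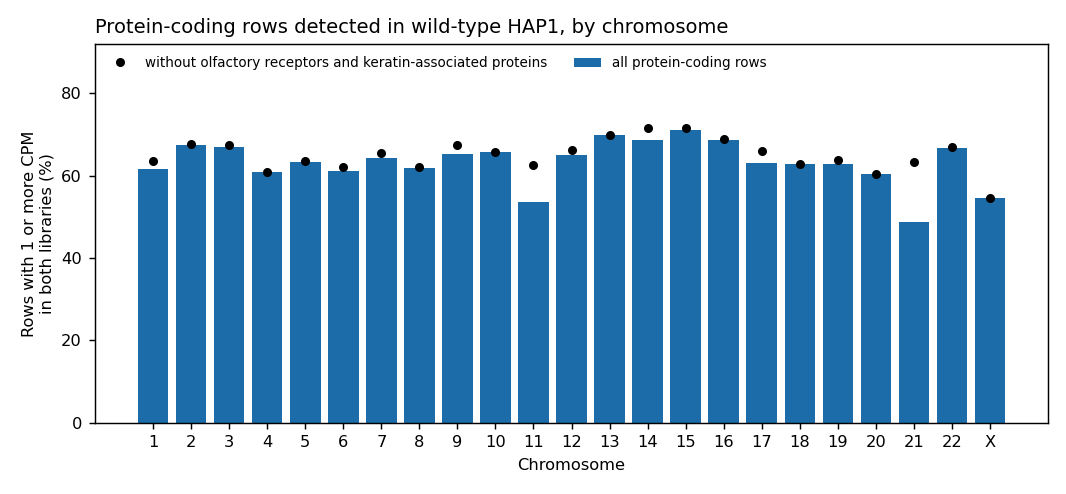
Share of protein-coding rows with 1 or more CPM in both WT libraries on each chromosome (bars, %), and the same without olfactory receptor and keratin-associated protein genes (points). The point lies well above the bar on chromosomes 11 and 21 and close to it on the X chromosome, whose share of 54.7% is then the lowest.

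The small RNA libraries made from the same WT RNA gave a second view of lineage. They held 236073 and 266466 microRNA counts, so that 1 count was worth 4.24 and 3.75 CPM and precision was low. Of 50 microRNAs of lineage and cluster lists 10 had more than 3 counts in both libraries and 21 were at 0 in both. The 50 include 6 of the miR-17-92 proliferation cluster, with 4 above that limit and 1 at 0. They also include 5 of the imprinted 14q32 cluster, with 1 above it and 3 at 0. The mature sequences (RefSeq, GRCh38.p14) of 6 of the 50 are given with the seed, bases 2 to 8, in capitals, to show which share a seed.
miR-92a-3p: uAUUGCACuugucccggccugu
miR-17-5p: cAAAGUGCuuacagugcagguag
miR-20a-5p: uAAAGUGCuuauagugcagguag
miR-302a-3p: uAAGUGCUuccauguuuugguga
miR-302d-3p: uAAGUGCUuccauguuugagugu
miR-200c-3p: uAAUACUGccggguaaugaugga
miR-17-5p and miR-20a-5p share the seed AAAGUGC, and miR-302a-3p and miR-302d-3p share AAGUGCU.

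Of the proliferation cluster, whose host gene MIR17HG stood at 33.1 ± 0.0631 CPM in the RNA-seq libraries, miR-92a-3p had 3585 and 2652 counts. The mature miR-92a-3p sequence has 2 genomic copies, so these counts cannot be assigned to this cluster alone. The cluster members with the AAAGUGC seed had few, miR-17-5p 9 and 23 counts and miR-20a-5p 14 and 20. The stem cell family had few counts, miR-302d-3p with 19 and 7 and miR-302a-3p with 0 and 10. The epithelial miR-200c-3p was present with 54 and 77 counts, beside the 0 and 1 counts of CDH1 in the RNA-seq libraries. The blood microRNAs miR-223-3p (4 and 5 counts) and miR-142-3p (7 and 4) were just above the limit. The neural miR-9-5p had 21 and 13 counts and miR-127-3p of the imprinted 14q32 cluster 5 and 23. The erythroid miR-451a, the neuronal miR-124-3p and the muscle and mesenchymal miR-145-5p were at 0 in both libraries.

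The 2 WT libraries were close to each other. Among detected rows the median difference was 0.10 on the log2 scale, and 28 rows (0.204%) differed by 2-fold or more, 24 of them higher in replicate 2. Their counts differed with a chi-square of 3.95 per degree of freedom over 16359 rows, and the libraries were counted as 2 samples. At 10 or more CPM in both libraries 2 of 9635 rows differed by 2-fold or more. The mitochondrial 12S rRNA MT-RNR1 had 37.6 and 17.2 CPM, and the knockout libraries split by date in the same direction with 42.5 and 17.8 CPM. ACTL8, an actin-like gene of the testis, had 21.5 and 44.2 CPM in WT and 2.24 and 2.34 CPM in knockout; edgeR did not call that difference (adjusted p = 0.193) and DESeq2 did (adjusted p = 2.42e-10). AMBN, which encodes an enamel matrix protein, had 346 and 752 counts in WT and 1 and 0 in knockout, a ratio of 1009 with an exact 95% interval from counting of 181 to 39886 (edgeR adjusted p = 0.0257). The heat shock gene DNAJB1 was higher in replicate 1 of both groups, with 140 and 85.5 CPM in WT and 127 and 90.6 CPM in knockout. The cell cycle gene CCND2 (27.9 and 42.9 CPM) and POLR2A, the largest subunit of RNA polymerase II (39.8 and 60.5 CPM), were higher in WT replicate 2 than in the other 3 libraries.

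The knockout libraries served to ask how far this baseline held in a derived clone. Of the 13731 detected rows 13250 (96.5%) also had 1 or more CPM in both knockout libraries. Of the 26015 rows at 0, none reached 1 CPM in either knockout library and 22951 (88.2%) were at 0 in both. The row at 0 in WT with the highest knockout mean was UGT2B4, with 6 and 6 counts. In the other direction 11 detected rows were at 0 in both knockout libraries: BRINP3, SLC19A3, ZNF385D, ZNF141, FUT9, GJA1, ISPD, KCNE3, RMST, SETBP1 and DCAF12L2. SETBP1, a nuclear gene mutated in myeloid leukaemias, had 104 and 151 counts in WT, and was at least 78.1-fold lower in knockout, taking 3 counts over the group as the limit. The gap junction gene GJA1 had 41 and 91 counts and was at least 40.4-fold lower. Across the 11 rows these lower bounds ran from 19.3 to 78.1. They were selected for being at 0 in knockout, so no test of them is given.

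In the fit over all genes (edgeR, quasi-likelihood test, Benjamini-Hochberg adjusted p under 0.05) 497 of 16233 tested genes were higher in knockout (3.06%) and 568 were lower (3.50%), 6.56% in all. With the date as a replicate block the counts were 767 (4.72%) and 784 (4.83%), and with DESeq2 255 (1.57%) and 331 (2.04%), 3.61% in all. Of the 97 lineage genes with enough reads to be tested, 10 were higher and 20 lower (30.9%), with a median log2 difference of -0.08 against 0.00 over all tested genes. DESeq2 called 18 of the 97 (18.6%), 8 higher and 10 lower. The lists were chosen with earlier results of these data known, so this share is a description. By list, 4 mesenchymal genes rose and 2 fell of 18 tested, 5 of 9 epithelial genes fell and none rose (0 at an unadjusted p under 0.05), and 3 neural genes rose and 5 fell of 11. DESeq2 called 2 of those 5 epithelial genes, and 1 neural gene higher and 2 lower. Of 3 tested endothelial, 3 muscle and 4 endoderm genes none was called by edgeR or DESeq2, and 1 in each list had an unadjusted p under 0.05. Of the 13 genes in the list of cell cycle inhibitors and tumour suppressors, MDM2 included, none was called by either tool. Of these, 3 had an unadjusted p under 0.05. The share of all tested genes under that unadjusted cut is not given here. The adjusted shares above use another threshold and cannot be set against the unadjusted counts.

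Among single lineage genes, KIT fell from 10.9 and 11.1 CPM to 0.794 and 1.40 CPM, a log2 change of -3.30 ± 0.23 (SE, edgeR adjusted p = 2.61e-16). Both knockout libraries lay below both WT libraries. P-cadherin (CDH3) fell from 5.84 and 6.59 CPM to 0.981 and 0.698 CPM (-2.85 ± 0.27, edgeR adjusted p = 7.32e-12), and KRT8 from 18.0 and 15.4 CPM to 7.24 and 8.22 CPM (-1.08 ± 0.14, edgeR adjusted p = 8.61e-08). Of the delivered factors KLF4 fell from 7.48 and 10.0 CPM to 2.15 and 1.89 CPM (-2.09 ± 0.21, edgeR adjusted p = 8.66e-11), and SOX2, POU5F1 and MYC were not called. For CDH3, KRT8 and KLF4, too, the groups did not overlap. Groups of 2 libraries can separate in this way by chance, and the share of all tested genes that did so is not given here.

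A few listed genes were near 0 in the knockout libraries. The limb and mesenchyme factor PRRX1 had 54 and 65 counts in WT and 1 and 2 in knockout, a ratio of 36.4 with an exact 95% interval from counting of 12.2 to 179. The ETS factor FLI1 had 26 and 21 against 1 and 2 counts (14.4-fold, 4.63 to 72.3). The DNA sensor IFI16 had 51 and 83 against 1 and 1 counts (61.6-fold, 16.7 to 514). edgeR called all 3, with adjusted p = 3.84e-10 for PRRX1, 9.34e-05 for FLI1 and 3.53e-11 for IFI16. GATA3 fell from 2.85 and 3.48 CPM to 1.21 and 1.05 CPM (-1.46 ± 0.29, edgeR adjusted p = 0.000311), and PAX6 from 12.5 and 16 CPM to 7.14 and 8.77 CPM (-0.82 ± 0.15, edgeR adjusted p = 7.37e-05).

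Other genes were higher in knockout. TWIST2, a mesenchymal repressor, rose from 9 and 9 counts to 78 and 65 (3.12 ± 0.35 log2, edgeR adjusted p = 1.63e-09), and was thus below detection in WT and above 1 CPM in both knockout libraries. FOXD3 rose from 5.98 and 6.51 CPM to 12.5 and 14.4 CPM (1.13 ± 0.15, edgeR adjusted p = 1.44e-07) and the egg coat gene ZP3 from 2.12 and 2.50 CPM to 4.30 and 5.23 CPM (1.06 ± 0.23, edgeR adjusted p = 0.00104). The matrix gene FBN1 rose by less, from 50.9 and 45.1 CPM to 67.8 and 62.4 CPM (0.47 ± 0.08, edgeR adjusted p = 3.98e-05). In each of these genes both knockout libraries lay above both WT libraries, with the same limit for groups of 2.

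Some calls rested on 1 library or on the tool. TAL1 was higher at 59.3 and 59.2 CPM (0.32 ± 0.08, edgeR adjusted p = 0.00564), and without WT replicate 1 it was not called (edgeR adjusted p = 0.237). DAZL was lower at 13.3 and 16.4 CPM (-0.64 ± 0.13, edgeR adjusted p = 0.00144), and without WT replicate 2 it was not called (edgeR adjusted p = 0.159). GDF3, ESRP1, SYT1, HAND2 and TMEM173 were called by edgeR and not by DESeq2. The DESeq2 adjusted p of these genes ran from 0.067 for SYT1 to 0.421 for HAND2. So were LIN28A (edgeR adjusted p = 0.0116, DESeq2 adjusted p = 0.0565), ACTB (0.0186 and 0.0862) and HIST1H1E (0.0287 and 0.657). LIN28A was lower in knockout (-0.45 ± 0.12), and ACTB (0.18 ± 0.05) and HIST1H1E (0.24 ± 0.07) were higher. The replicate block added MYB, ITGA2B, ANPEP, MEF2C, FOXA1, LINC00152 and NPM1 to the calls, with edgeR adjusted p between 0.0183 and 0.0471. Among noncoding RNAs NEAT1 fell to 50.1 and 48.0 CPM (-0.46 ± 0.08, edgeR adjusted p = 4.75e-05) and MALAT1 to 817 and 745 CPM (-0.28 ± 0.06, edgeR adjusted p = 0.000345), and the Cajal body RNA SCARNA2 rose from 343 and 350 to 401 and 443 CPM (0.31 ± 0.06, edgeR adjusted p = 0.000109). The regulator of class I genes NLRC5 fell from 12.1 and 15.6 CPM to 7.05 and 6.93 CPM (-0.96 ± 0.15, edgeR adjusted p = 4.41e-06), while HLA-B and B2M were not called.

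**Figure D5:**
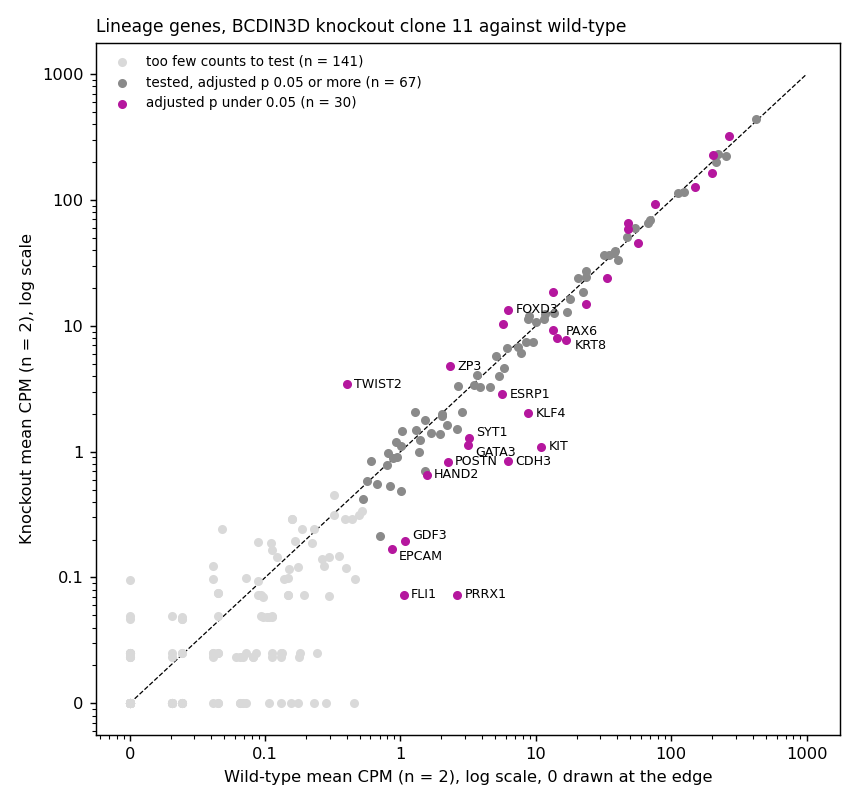
Mean CPM of the 238 lineage genes in the WT (x) and knockout (y) libraries, n = 2 each, on log scales with 0 at the edge; purple, edgeR adjusted p under 0.05; dark grey, tested and not called; light grey, too few counts to test; the dashed line marks equal means. KIT, CDH3, PRRX1 and FLI1 lie far below the line and TWIST2 far above it, and most tested genes lie near it.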

How the data were processed

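Each library has its own table of raw counts, deposited by the authors as whole numbers per gene symbol or mature microRNA. Per the submitters' processing notes the tools were STAR, featureCounts, Subread, SAMtools, cutadapt and FastQC and the build hg38, with no roles stated. Versions, the annotation and the strand setting were not given in the sources used here. Multi-copy genes may be undercounted as a result of how reads were assigned.

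CPM was the count divided by the library total. Symbols matched a RefSeq table of GRCh38.p14 in 34275 of 57996 rows (59.1%), 2137 of them by an older symbol. Gene classes were taken by symbol, and protein families only among RefSeq protein-coding rows; these patterns were corrected after the rows were seen. The members and the lists were chosen with earlier results of these data known.

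Knockout was tested against WT in R 4.3.3 with edgeR 4.0.16 (filterByExpr with a minimum count of 10, TMM, robust quasi-likelihood F test, Benjamini-Hochberg over 16233 rows, threshold 0.05), which was tested on simulated data. DESeq2 1.42.0, other scalings and filters, a replicate block and leaving out each library were alternatives. Standard errors are the log2 change over the square root of F. The dates in the titles pair the libraries, and the deviations of same-date libraries from their group means correlated at 0.08, over 2 pairs. The biological coefficient of variation was 5.53%.

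Genes named were the 20 rows of highest CPM, up to 6 highest and 4 zero members of each list (all members of lists of 14 or fewer), up to 3 of smallest p, up to 3 per class, the 8 rows of 10 or more CPM that differed most between the WT libraries, and detected rows at 0 in knockout. Outside this rule, after their values were seen, the text names BCDIN3D, CD34, CDH1, DCX, DPPA3, EBF1, EPCAM, ERG, GATA1, GFI1, H19, HOTAIR, HOTAIRM1, HOTTIP, IKZF1, IRF8, LIN28A, LINC-ROR, LINC00152, LMO2, MEG3, MYH7, PRDM14, PTPRC, RMRP, RN7SL2, RPPH1, RUNX1, S100A9, SNAI1, SNAP25, SOX1, SPI1, TDGF1, TERC, TERT, UGT2B4, ZEB2 and ZFP42. Some genes that the rule takes are not reported here.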

Additional observations from a re-analysis of the deposited data

How the results depend on the processing

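The CPM threshold, another scaling or 1 library left out kept the counts of detected rows and of rows at 0 within 1.5 times of the values given. Of 72 list counts 70 stayed within 1.5 times, and 2 moved: 4 early mesoderm genes were detected at 2 CPM or more, and 5 germline genes at 0.5 CPM or more. The CpG-rich share of detected promoters was 84.2% at 0.5 CPM, 86.8% at 2 CPM and 70.3% with a ratio of 0.75, which gave 11.5% for rows at 0. At 10 CPM or more 2 rows differed by 2-fold or more between the WT libraries. For knockout against WT, DESeq2 called 255 genes higher and 331 lower, and the replicate block 767 and 784. Leaving out 1 library gave 240 to 684 genes higher and 340 to 705 lower: 240 without WT replicate 1, 320 and 340 without WT replicate 2, and 301 higher without KO replicate 2. Scaling by library totals alone gave 374 higher and 644 lower, against 497 and 568. For 44 named genes 361 of 396 values kept their direction and call, 18 lost the call and 11 gained it, among them ACTL8 with DESeq2 and with the block. Another 6 values changed sign when 1 library was left out, and the cause was not tested. DNAJB1 stood at -0.02 and ranged from -0.34 (edgeR adjusted p = 0.0219) without WT replicate 2 to 0.38 (edgeR adjusted p = 0.00774) without WT replicate 1, with 0.21 without KO replicate 2. MT-RNR1 stood at 0.18 and ranged from -0.59 to 0.85, CCND2 at -0.15 from -0.42 to 0.20 and POLR2A at -0.25 from -0.52 to 0.085. Among these 44 genes the block changed the calls of ACTL8 and TMEM160; the other calls it changed among named genes are in the text. Depth limits rows at 0 to below 0.145 and 0.123 CPM.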
